A study of Mus musculus with 2 samples.

Results

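Amino acids cross membranes through several families of solute carriers, and the genes described here are the mouse members of 6 of these families, Slc1, Slc3, Slc6, Slc7, Slc36 and Slc38. They were chosen by gene symbol: every gene of these families with a protein-coding transcript was taken, except Slc7a1, Slc7a2 and Slc7a11. The symbols gave 58 genes of 55536 annotated genes, of which 22028 were protein coding. One of them, Slc7a6os, carries the family's name because it lies opposite Slc7a6 but codes for no transporter (it is the relative of a yeast factor that brings RNA polymerase II into the nucleus), so 57 are transporter genes. The rule itself uses no measured level, but it was set with earlier results of these data known.

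The RNA came from macrophages grown from the bone marrow of C57BL/6J mice and was the part of total RNA that stays with chromatin, where transcripts are still being made and many introns have not yet been removed. All cells had been exposed to lipid A, the portion of the outer membrane of bacteria through which they are sensed by the receptor TLR4, at 100 ng/ml in 2 pulses: 12 h, then a washout of 12 h, then 75 min. There was 1 group of 2 biological replicates, started from 250 ng of RNA (replicate 1) and 500 ng (replicate 2). Untreated cells and cells with a single pulse were not analysed here, so the values are levels and not responses. The labels give the age and sex of the mice as not collected and the same donor entry for both libraries, and they do not spell out separate cultures, so the spread between the libraries may be technical in part.

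These carriers differ in how they work. Slc7 light chains are exchangers that reach the cell surface only when bound to a heavy chain of the Slc3 family, whereas the cationic branch of Slc7 works alone. Slc38 carriers bring in glutamine and other neutral amino acids with sodium, and some of them sit in the lysosome, where Slc38a9 reports amino acids to the kinase complex mTORC1. Slc36 carriers move small neutral amino acids with protons, Slc1 carriers move glutamate or neutral amino acids, and Slc6 carriers take up glycine, proline, taurine, creatine and several neurotransmitters with sodium and chloride.

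Replicate 1 had 18388793 expected counts on annotated genes and replicate 2 had 17640464. The 58 genes took 33095 of them in replicate 1 (0.180%, 95% Clopper-Pearson interval 0.178 to 0.182%) and 37319 in replicate 2 (0.212%, 0.209 to 0.214%); these intervals, like all below, cover counting error only. All 10 macrophage markers looked at reached 1 TPM (transcript abundance per length, scaled to a fixed sum in each library) in both libraries. They did not move together between the libraries: 3 of the 10 (Adgre1, Itgam and Fcgr1) were at least 2-fold lower in replicate 2, beside 3.21% of all genes with 10 or more counts in each library, and Lyz2 (log2 ratio of replicate 2 over replicate 1 -0.90) and Csf1r (-0.87) were also lower there, whereas Cd14 (0.69) and Msr1 (0.31) were higher and Cd68 (0.08), Mertk (-0.06) and Spi1 (-0.06) were nearly level. Their summed level was 1281 TPM in replicate 1 and 913 TPM in replicate 2, of which Adgre1 alone had 496.6 and 192.67 TPM. In bulk samples such as these, fewer cells of a type and less RNA per cell cannot be told apart. The 4 T and NK cell markers had no count, the 4 B cell markers had 2 counts in replicate 1 and 1 in replicate 2, and the 5 neutrophil markers 2 and 3. These are counts by alignment. The alignment-free program described below put Ms4a1 (B cell, 1.31 and 1.53 TPM) and Mpo (neutrophil, 1.23 and 1.04 TPM) above 1 TPM in both libraries. Each was the 1 such marker of its list, and no T and NK cell or mast cell marker reached this level. That program also put the fibroblast marker Col1a1 (1.41 and 1.54 TPM) and the megakaryocyte marker Gp9 (1.44 and 1.00 TPM) above 1 TPM in both libraries, unlike alignment. Of the megakaryocyte markers Pf4 (2.78 ± 0.62 TPM, SD, n = 2) and Itga2b (1.97 ± 0.071 TPM) passed 1 TPM, as did the erythroid gene Alas2 (5.19 and 1.24 TPM in replicates 1 and 2), whereas summed fibroblast markers gave 1.01 and 1.85 TPM and summed mast cell markers 0.03 and 0.53 TPM.

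The transporter genes ranged from high levels to no count in either library. At least 1 TPM in both libraries was reached by 19 of the 58 genes (32.8%), Slc7a6os among them, beside 40.1% of all protein-coding genes. No count in either library was found for 23 genes (39.7%), beside 34.6% of all protein-coding genes, and the other 16 lay between. Genes at 0 were not detectable at this depth, since no read seen is compatible with as many as 3 counts (1.63e-05% of the counts of replicate 1, 1.7e-05% in replicate 2). The median over all 58 genes was 0.0475 ± 0.0071 TPM and that of all protein-coding genes 0.29 TPM. The median of the 19 detected genes was 15.2 ± 2.58 TPM, and that of detected protein-coding genes 9.37 TPM. The summed level of the 58 genes was 926 TPM in replicate 1 and 1035 TPM in replicate 2, and 6 genes (Slc6a6, Slc38a6, Slc38a1, Slc3a2, Slc7a8 and Slc6a8) held 84.5% and 85.9% of these sums.

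**Figure D1:**
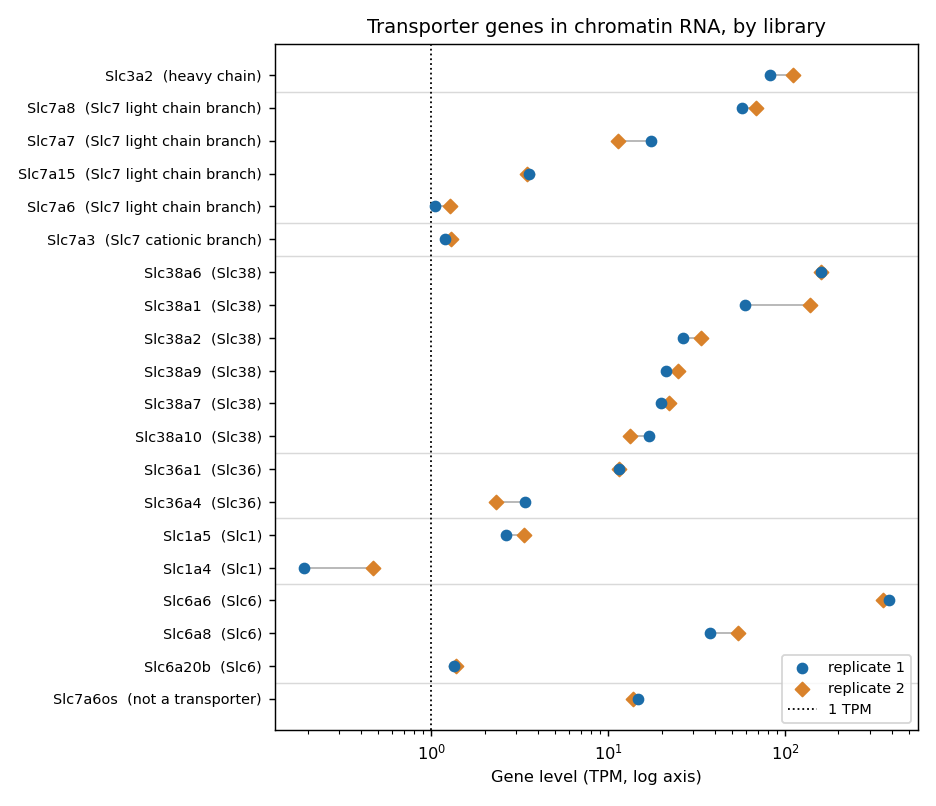
Gene level (TPM, log axis) in replicate 1 (circles) and replicate 2 (diamonds) of the 19 genes at 1 TPM or more in both libraries and of Slc1a4, ordered by family; the dotted line is 1 TPM. Levels run from 387.58 TPM for Slc6a6 in replicate 1 down to 0.19 TPM for Slc1a4 in replicate 1, and the Slc38a1 values lie apart at 59.31 and 137.85 TPM.

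The families differed in how many genes were detected. Of the Slc38 family 6 of 11 genes reached 1 TPM in both libraries, of the Slc7 light-chain branch 4 of 9, of Slc36 2 of 4, of the Slc7 cationic branch 1 of 3, of the heavy chains 1 of 2, of Slc1 1 of 7 and of Slc6 3 of 21. Slc38 genes summed to 303 TPM in replicate 1 and 390 TPM in replicate 2. Slc6 genes summed to 427 and 415 TPM, most of it from Slc6a6 alone. All 6 detected Slc38 genes were above 10 TPM in both libraries, and 13 genes in all were.

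The heavy chain Slc3a2 (chromosome 19, 8706882 to 8723369 in mm10), the shared partner of most light chains and also known as CD98, had a level of 81.62 TPM in replicate 1 and one of 110.55 TPM in replicate 2. The other heavy chain, Slc3a1, which pairs with Slc7a9 in kidney and gut, had 0.03 and 0.19 TPM, and Slc7a9 had no count. Slc3a2 was thus the 1 heavy chain at 1 TPM or more in both libraries.

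Among the light chains the highest by alignment was Slc7a8 (chromosome 14, 54722209 to 54781946), the exchanger LAT2 for large and small neutral amino acids, at 56.71 and 68.58 TPM. By the alignment-free program described below, Slc7a7 was above Slc7a8 in both libraries. Slc7a7, the exchanger y+LAT1 that lets arginine and lysine out of cells, had 17.36 and 11.42 TPM. Its exons overlap those of Oxa1l on the opposite strand, which had 13.8 and 9.46 TPM; no label or header says whether counting used the strand, so reads of such a pair cannot be told apart. Slc7a15 followed with 3.57 and 3.47 TPM. Slc7a6, the related exchanger y+LAT2, had 1.05 and 1.28 TPM. Slc7a5 (chromosome 8, 121881150 to 121907694), the exchanger LAT1 that supplies leucine to growing cells, had only 1.07 and 0.85 TPM, from 40 and 43 counts. Slc7a8 was thus above Slc7a5 in each library, by far more than either gene differed between libraries. Slc7a9, Slc7a10, Slc7a12 and Slc7a13 had no count. The light chains Slc7a5, Slc7a6, Slc7a7, Slc7a8 and Slc7a10, which bind Slc3a2, summed to 76.19 TPM in replicate 1 and 82.13 TPM in replicate 2, or 0.933 and 0.743 of the Slc3a2 level. With Slc7a11, another partner of Slc3a2 that the choice by symbol left out, the 6 light chains summed to 86.98 and 110.47 TPM, or 1.07 and 0.999 of the Slc3a2 level. These ratios hold for the alignment-based values only. By the alignment-free program described below, the 6 light chains summed to 142 and 159 TPM, beside 218 and 240 TPM for Slc3a2.

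Of the cationic branch Slc7a3, an arginine and lysine carrier, had 1.20 and 1.29 TPM from 45 and 42 counts. Slc7a4 and Slc7a14 were at or below 0.32 TPM in both libraries.

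The Slc38 family was led by Slc38a6 (chromosome 12, 73286779 to 73354049), one of its less studied members, at 159.30 and 159.18 TPM. Slc38a1 (chromosome 15, 96571418 to 96642913), a glutamine importer, had 59.31 TPM in replicate 1 and 137.85 TPM in replicate 2. Slc38a2, the system A carrier that cells raise when amino acids run short, had 26.57 and 33.27 TPM. The lysosomal genes of this family were close together in gene level. Slc38a9 had 21.24 and 24.65 TPM, and Slc38a7, which lets glutamine out of lysosomes, had 19.96 and 22.18 TPM. Slc38a10 had 17.02 and 13.31 TPM. Slc38a3, Slc38a4, Slc38a5 and Slc38a11 had no count and Slc38a8 had 1 count in 1 library. For Slc38a6, 35.2% of the 31-base stretches of its annotated transcripts also occur in transcripts of other genes, the highest share among the 58 genes. Its deposited posterior SD of the count was at most 0.47. Yet its counts were 4643 and 4791 by alignment and 15076 and 14606 by the alignment-free program described below. The library totals were 18445009 and 17686824 by alignment and 32830001 and 30388561 by that program. Whether shared stretches have a part in this difference was not tested.

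Slc38a1, Slc38a2 and Slc38a4 lie in a row on the same strand of chromosome 15 with no protein-coding gene between them, 44.5 kb and 295 kb apart. Slc38a1 and Slc38a2 were both detected and Slc38a4 had no count. Promoters in the RefSeq table (build GRCm38.p6, which shares its coordinates with mm10) differ between Slc38a2 and Slc38a4. They are shown because one belongs to a detected gene and the other to its neighbour without a count. Each runs from 250 bases before the start farthest upstream to 10 bases after it, 5′ to 3′ on the minus strand, with every CG dinucleotide in capitals.
Slc38a2, chr15:96699719-96699978, minus strand: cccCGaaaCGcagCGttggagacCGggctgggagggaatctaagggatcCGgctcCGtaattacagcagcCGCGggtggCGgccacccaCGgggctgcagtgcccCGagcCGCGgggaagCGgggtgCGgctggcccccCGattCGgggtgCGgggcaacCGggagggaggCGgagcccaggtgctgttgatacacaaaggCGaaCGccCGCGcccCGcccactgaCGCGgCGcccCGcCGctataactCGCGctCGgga
Slc38a4, chr15:97055947-97056206, minus strand: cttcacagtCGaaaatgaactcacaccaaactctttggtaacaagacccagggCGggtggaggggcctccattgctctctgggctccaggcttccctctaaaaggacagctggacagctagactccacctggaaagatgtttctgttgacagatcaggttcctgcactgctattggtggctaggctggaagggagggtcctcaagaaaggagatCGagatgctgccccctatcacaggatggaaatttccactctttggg
The Slc38a2 stretch holds 33 CG dinucleotides and the Slc38a4 stretch 3. Over the whole 300-base promoter entries the CpG observed over expected was 1.03 for Slc38a2 and 0.238 for Slc38a4.

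A promoter entry was found for 42 of the 58 genes, 14 of them among the 19 detected genes; Slc6a6, Slc38a1 and Slc7a5 are among the genes without one. CpG observed over expected was 0.6 or more in 10 of the 14 detected genes (71.4%) and in 12 of the 28 others (42.9%), beside 76.2% of all detected protein-coding genes and 30.3% of those below. The medians were 0.680 and 0.487 for the transporter genes and 0.794 and 0.334 for all protein-coding genes. High CpG content was also found at genes with no count, such as Slc6a16 at 0.914 and Slc6a11 at 0.815. The detected gene with the lowest value was Slc6a20b at 0.0699.

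**Figure D2:**
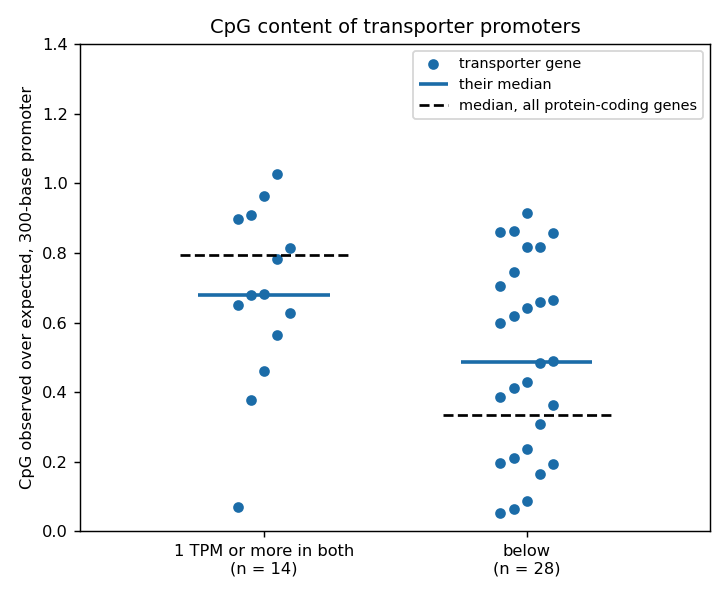
CpG observed over expected (vertical axis, a ratio without unit) in the 300-base promoters of 14 detected transporter genes and 28 below 1 TPM in a library, 1 point per gene; solid lines are their medians (0.680 and 0.487) and dashed lines the medians of all protein-coding genes split the same way (0.794 and 0.334). The 2 groups of points overlap over most of the range.

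Of the proton-coupled Slc36 family, Slc36a1, which exports amino acids from lysosomes, had 11.49 and 11.57 TPM. Slc36a4 had 3.37 and 2.31 TPM. Slc36a2, 19.3 kb from Slc36a1, had no count, and Slc36a3 had 0.08 and 0.17 TPM.

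In the Slc1 family the detected gene was Slc1a5, the glutamine importer ASCT2, at 2.63 and 3.36 TPM from 98 and 130 counts. Slc1a4, the alanine, serine and cysteine carrier ASCT1, had 0.19 and 0.47 TPM from 12 and 27 counts. The 5 glutamate carriers of the family (Slc1a1, Slc1a2, Slc1a3, Slc1a6 and Slc1a7) were at or below 0.18 TPM in both libraries.

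Slc6a6 (chromosome 6, 91684053 to 91759066), the taurine transporter, was the highest of all 58 genes with 387.58 TPM in replicate 1 and 359.06 TPM in replicate 2, and it ranked 71 among the 22028 protein-coding genes. It made up 41.9% of the summed level of the 58 genes in replicate 1 and 34.7% in replicate 2. Slc6a8 (chromosome X, 73673150 to 73682502), the creatine transporter, had 37.61 and 54.15 TPM. Slc6a20b had 1.35 and 1.37 TPM, but its exons overlap those of Sacm1l on the opposite strand, which had 8.34 and 10.36 TPM, and its posterior SD was 3.49 of 122.65 counts in replicate 1. The limit given for Slc7a7 and Oxa1l holds for this pair too. The other 18 Slc6 genes, which include the carriers of serotonin (Slc6a4), dopamine (Slc6a3), noradrenaline (Slc6a2) and glycine (Slc6a5, Slc6a9), were at or below 0.32 TPM, and 12 had no count. Slc7a6os, the gene that is no transporter, had 14.78 and 13.71 TPM, above Slc7a6 from which it lies 2.01 kb away on the opposite strand.

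A gene's TPM adds up its annotated isoforms, and in chromatin RNA many of these are short models that keep an intron. Slc6a6 shows what this does to a level. Its full-length coding isoform Slc6a6-201, 6186 bases long, took 78.4% and 79.2% of the gene's counts but 24.2 ± 1.03% of its TPM. Retained-intron isoforms held 60.3 ± 3.21% of its TPM. Summed over protein-coding isoforms alone, a setting added after the data were seen, Slc6a6 stood at 112.42 and 106.29 TPM and was still the highest of the 58 genes in each library. Slc38a6 had 85.17 and 86.85 TPM and Slc3a2 70.71 and 91.58 TPM, so that Slc38a6 was above Slc3a2 in replicate 1 and below it in replicate 2. Slc38a1 followed with 28.37 and 61.23 TPM. In this setting the lysosomal Slc38a9 had 5.03 and 5 TPM, below Slc38a7 with 7.99 and 9.46 TPM.

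Retained-intron isoforms took a similar share of these genes as of genes in general. Over the 13 genes with such an isoform and a mean of 1 TPM the median share of TPM was 46.3 ± 0.43%, and over 5998 protein-coding genes chosen the same way it was 45.1 ± 0.61%. More than 50% was reached by 5 of the 13 (Slc1a5, Slc6a6, Slc38a7, Slc6a8 and Slc38a1), beside 41.8% of those protein-coding genes. Slc1a5 stood at the top with 94.3 ± 8.0%: its coding isoform Slc1a5-201 had no count in replicate 1 and 14.8 counts in replicate 2. At the other end Slc3a2 had 15.3 ± 2.68% and Slc7a3 10 ± 14.1%, the latter from few counts. By share of expected counts instead of TPM the median of the 13 genes was 22.7%, with Slc6a6 at 17.6% and Slc1a5 still at 94.3%.

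**Figure D3:**
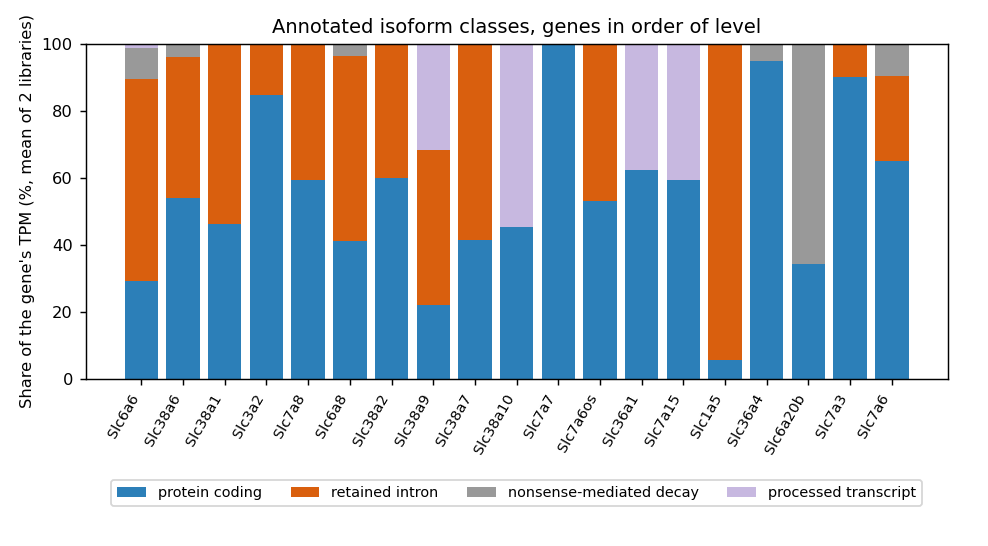
Share of each gene's TPM (%, mean of 2 libraries) on protein-coding, retained-intron, nonsense-mediated decay and processed-transcript isoforms, for the 19 detected genes in order of level. The retained-intron part ranges from 0 (Slc38a10, Slc7a7 and others that have no such isoform annotated) to 94.3% (Slc1a5).

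The 2 libraries were compared gene by gene as the ratio of replicate 2 over replicate 1 in scaled counts, without a test, since each side is 1 library of the same condition. At least 10 counts in each library were available for 21 of the 58 genes, of which 14 were higher in replicate 2 and 7 in replicate 1. Their median log2 ratio was 0.18, beside 0.0035 over all 13227 genes with as many counts. At least 2-fold higher in replicate 2 were 2 genes, Slc38a1 and Slc1a4, beside 4.08% of all genes; no gene was 2-fold higher in replicate 1, beside 3.21%.

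The counts of Slc38a1 were 3949.93 in replicate 1 against 8493.95 in replicate 2, and its log2 ratio was 1.24 with a 95% interval of 1.18 to 1.29. Its interval lies wholly past 2-fold. Slc1a4 had 12 and 27 counts and a log2 ratio of 1.30 with an interval of 0.27 to 2.42, which also covers changes under 2-fold. By the alignment-free counts described below, Slc38a1 was again past 2-fold at 1.09 and Slc1a4 was not, at 0.48. Slc6a8 followed at 0.64 (0.53 to 0.75). On the other side Slc36a4 was at -0.69 (-0.95 to -0.44) and Slc38a10 at -0.67 (-0.86 to -0.48). Slc6a6, with 11779 and 10377 counts, was at -0.05 (-0.09 to -0.01). The amount of input RNA and some macrophage markers, in both directions, also differed between these libraries (above). With 1 library on each side the input and the replicate cannot be told apart, and the part of the markers in the ratios was not tested.

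**Figure D4:**
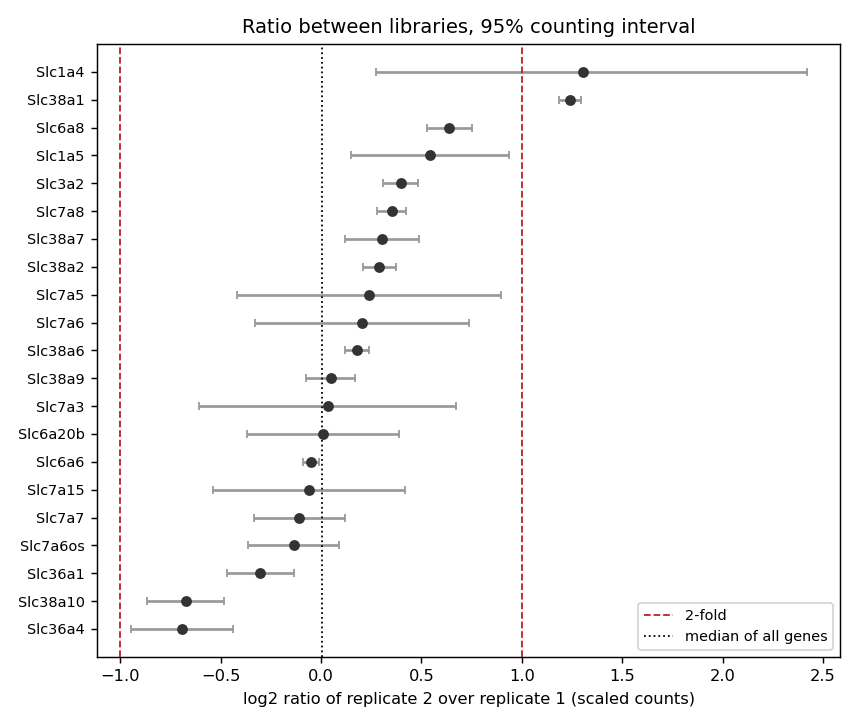
log2 ratio of replicate 2 over replicate 1 in scaled counts for the 21 genes that had 10 or more counts on both sides, with 95% Clopper-Pearson intervals for counting error as bars. Dashed lines mark 2-fold and the dotted line the median of all genes (0.0035); Slc38a1 (1.24) and Slc1a4 (1.30) lie past 2-fold, and Slc1a4 has the widest interval.

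TPM and counts can move apart when reads shift between long and short isoforms. Slc7a7 went from 17.36 to 11.42 TPM while its count ratio was -0.11 on the log2 scale (-0.34 to 0.12), as its effective length rose from 1177 to 1683 bases. Slc36a1 had 11.49 and 11.57 TPM at a log2 count ratio of -0.30 (-0.47 to -0.14), with effective lengths of 3504 and 2856 bases.

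A second deposited quantification was made from the reads without alignment. It put 23 of the 58 genes at 1 TPM in both libraries in place of 19. The share of all protein-coding genes at this level by this program was not counted. Whether the rise is particular to these genes can therefore not be said. Slc7a5, Slc1a3, Slc7a13, Slc38a11 and Slc38a8 came above this level and Slc7a6 fell below it. For Slc7a5 it gave 7.64 and 5.52 TPM, of which 83.6% lay on Slc7a5-203, a noncoding model of 174 bases with 7 and 5 estimated counts. The coding isoform Slc7a5-201 had 0.708 and 0.692 TPM there, close to the 0.67 and 0.85 TPM of the alignment-based table. For Slc1a3 62.1% of a mean of 5.67 TPM lay on a retained-intron model.

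Of the 19 detected genes, 12 (63.2%) were higher by the alignment-free program, beside 75.4% of 8829 detected protein-coding genes. More than 2-fold higher were 3 of the 19 (15.8%), beside 17.5% of those protein-coding genes. These 3 were Slc7a7, Slc3a2 and Slc6a20b. Slc7a7 had 65.6 ± 2.45 TPM by the alignment-free program, 4.56 times the other value, with 40.7% on the noncoding model Slc7a7-207. Slc3a2 had 229 ± 15.2 TPM, with 43.9% on the 378-base model Slc3a2-203 that had no count by alignment. The order of the leading genes was Slc6a6 (476 TPM), Slc38a6 (317 TPM), Slc3a2 and Slc38a1 (89.3 TPM). Slc7a7 came next with 67.4 and 63.9 TPM in replicates 1 and 2. It was above Slc7a8, the highest light chain by alignment, which had 51.6 and 59.2 TPM here.

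**Figure D5:**
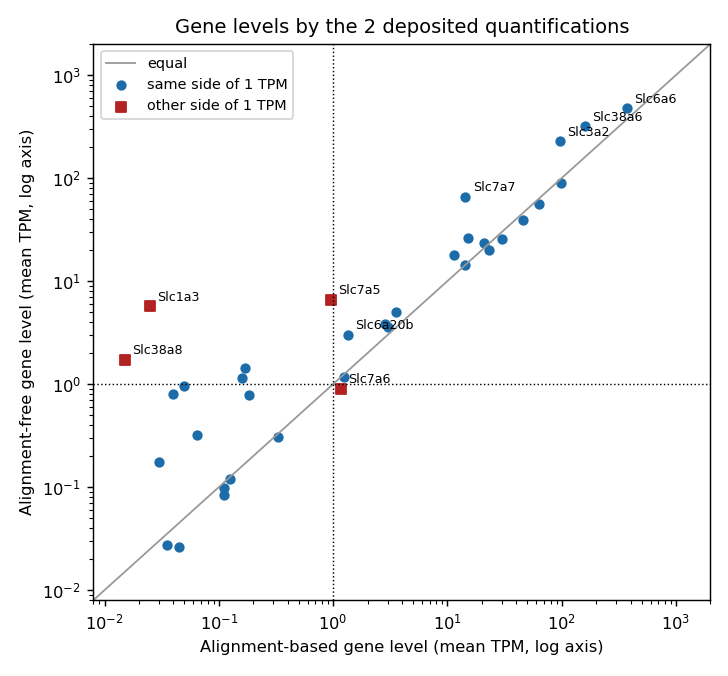
Mean gene level (TPM, log axes) by the alignment-based (horizontal) and the alignment-free (vertical) quantification for the 35 genes above 0 in both; the diagonal is equality and dotted lines are 1 TPM. Squares mark 4 genes on different sides of 1 TPM (Slc7a5, Slc1a3, Slc38a8 and Slc7a6), and low genes lie mostly above the diagonal.

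Amino acid shortage acts on some transporter genes through the factor ATF4, which binds a composite element whose core can be written TGATGNAA. That core, searched on both strands, was found in 3 of the 42 genes with promoter entries (Slc7a7, Slc1a4 and Slc6a21) and in 4.51% of all 27025 genes in the table. The stretches of Slc7a7 and Slc1a4 are shown since both genes had counts in both libraries. Matches on either strand are in capitals, and windows and orientation are as above.
Slc7a7, chr14:54417935-54418194, minus strand: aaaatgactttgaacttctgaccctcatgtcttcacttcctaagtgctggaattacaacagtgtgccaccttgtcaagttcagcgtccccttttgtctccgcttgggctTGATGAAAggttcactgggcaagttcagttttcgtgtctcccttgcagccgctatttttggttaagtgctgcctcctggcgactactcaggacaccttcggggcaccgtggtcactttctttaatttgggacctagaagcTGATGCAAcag
Slc1a4, chr11:20332704-20332963, minus strand: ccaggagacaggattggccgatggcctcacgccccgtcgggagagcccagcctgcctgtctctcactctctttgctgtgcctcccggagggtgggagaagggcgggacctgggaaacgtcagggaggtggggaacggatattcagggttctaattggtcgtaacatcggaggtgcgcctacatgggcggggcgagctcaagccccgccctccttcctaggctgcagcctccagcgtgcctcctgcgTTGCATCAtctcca
In Slc7a7 the matches begin 141 bases and 1 base before the RefSeq start, and in Slc1a4 the match begins 4 bases before it, on the opposite strand. The E-box CACGTG was found in 8 of the 42 genes (8.09% of all genes in the table), 2 of them detected (Slc36a1 and Slc38a7), and the NF-kB core GGANTTTCC in 2 (1.45% of all), neither detected. A match is a description of the letters and not of binding.

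Other genes of amino acid handling were looked at as lists. Beside their counts stand the shares given above, 40.1% of all protein-coding genes detected and, of all genes with enough counts, 4.08% at least 2-fold higher in replicate 2 and 3.21% at least 2-fold higher in replicate 1. Of the 14 amino acid transporters of other families 12 reached 1 TPM in both libraries. The highest were the histidine and peptide carrier Slc15a3 (183 ± 47.4 TPM), the aromatic amino acid carrier Slc16a10 (79.0 ± 8.99 TPM) and the leucine and methionine carrier Slc43a2 (56.3 ± 26.0 TPM), and the lowest was Slc43a1 (0.010 ± 0.014 TPM); none was 2-fold apart between libraries. The 3 Slc7 genes that the choice by symbol left out were all detected. The cystine importer Slc7a11 had 10.79 and 28.34 TPM, the arginine carrier Slc7a1 9.11 and 10.31 TPM, and the arginine carrier Slc7a2 5.77 and 12.53 TPM. By counts 2 of these 3, Slc7a11 (log2 ratio 1.59) and Slc7a2 (1.11), were past 2-fold in the same direction as Slc38a1. By alignment-free estimated counts, before scaling, Slc7a11 (1315 and 2758) was again past 2-fold and Slc7a2 (1170 and 2000) was not.

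Of 34 genes by which mTORC1 senses amino acids 27 were detected, led by the folliculin partner Fnip2 (173 ± 11.5 TPM), folliculin itself (Flcn, 57.3 ± 1.60 TPM) and Fnip1 (48.4 ± 9.38 TPM). The arginine sensor Castor1 had no count. Its relative Castor2 (log2 ratio -2.19, 110 and 22 counts) and the GATOR1 subunit Depdc5 (-1.08, 623 and 268 counts) were the 2 of 31 list members with enough counts that were past 2-fold, both higher in replicate 1. Their alignment-free estimated counts, before scaling, were under 2-fold apart in the same direction. These were 233 and 135 for Castor2 and 1075 and 544 for Depdc5. Of 24 genes of amino acid deprivation and the integrated stress response 18 were detected and none was past 2-fold. The highest were the double-stranded RNA kinase Eif2ak2 (152 ± 13.8 TPM), the phosphatase subunit Ppp1r15a (39.4 ± 21.9 TPM) and the transcription factor Ddit3 (36.1 ± 2.84 TPM), and the lowest was Ddit4 (0.16 ± 0.099 TPM). Of 11 enzymes of glutamine, glutamate and branched-chain amino acids 8 were detected and none was past 2-fold. Among them the glutamate dehydrogenase gene Glud1 had 29.6 ± 6.05 TPM, the asparagine synthetase gene Asns 9.56 ± 0.49 TPM, and the lowest was the branched-chain transaminase gene Bcat1 (0.015 ± 0.021 TPM).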

How the data were processed

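The deposited tables of expected counts, by gene and by transcript, rest on reads aligned to mm10 transcripts (GENCODE M21), per the files' descriptions and the file headers, which name no program or version. The deposited TPM values were divided by effective length and scaled to a fixed sum by the authors. A second transcript table holds the authors' estimated counts and TPM, made without alignment and summed here per gene. Gene positions and isoform classes are those of the same annotation.

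The genes and all lists were chosen with earlier results of these data known. With 1 group and no contrast no test was made. A gene was called detected at 1 TPM or more in both libraries. Ratios between libraries used expected counts rounded to whole numbers and scaled by TMM (edgeR 4.0.16). They took a minimum of 10 counts in each library, a 2-fold limit and 95% Clopper-Pearson intervals. The step was tried on simulated counts with counting error alone, which lack the spread between libraries, and the outcome is not reported here. Errors are SDs with n = 2. DESeq2 1.42.0 gave size factors for an alternative. Named are all detected genes, those past 2-fold, those that the alignment-free table moves across 1 TPM, and of each list the 3 highest, the lowest and those past 2-fold; others named were chosen after their values were seen, and some genes under this rule are not reported here. All listed symbols matched, 1 of them (Gcn1) through its older symbol, and Ddit3, with several gene identifiers, took the lower one. Promoters are RefSeq's, 1 a gene, the start farthest upstream for CpG content and any start for motif counts.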

Additional observations from a re-analysis of the deposited data

Results flagged for a closer look

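Of the 23 transporter genes without a count in the alignment-based gene table, 10 had more than 3 estimated counts in each library by the alignment-free program, a table that the levels above do not rest on. The mean estimated counts of the 2 libraries were 203 for Slc7a13, 150.2 for Slc38a11, 139 for Slc6a5, 118 for Slc6a17 and 58.5 for Slc36a2. They were 31.4 for Slc6a18, 31.3 for Slc38a5, 27.9 for Slc1a7, 23.0 for Slc6a15 and 14.9 for Slc6a2. As levels, Slc7a13 (3.95 TPM), Slc38a11 (2.61 TPM) and Slc36a2 (1.44 TPM) had a mean above 1 TPM, Slc36a2 with 0.708 TPM of its leading isoform in replicate 1 and 2.15 TPM in replicate 2. Slc38a11 had 99.3% of its alignment-free level on the noncoding model Slc38a11-205 and Slc7a13 had all of it on its coding isoform. With no control libraries, the limit of 3 counts was the only yardstick used. How many of the 7627 protein-coding genes without a count by alignment also pass it was not counted. The 10 genes can therefore not be called particular in this respect. Groups of 2 libraries allow no search for outlying samples.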

How the results depend on the processing

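The count of 19 detected genes was 23 with the alignment-free program, 20 with TPM over protein-coding genes, 20 at 0.5 TPM, 16 at 2 TPM, 15 with protein-coding isoforms alone (added after seeing the data) and 19 to 20 with 1 library left out. The median of the 58 genes, 0.0475 TPM, was 0.798 with the alignment-free program, 0.178 with TPM over protein-coding genes, 15.2 over detected genes only and 0.04 to 0.05 with 1 library left out. Past 2-fold were 2 genes also with DESeq2 size factors and with total counts, both Slc38a1 and Slc1a4, and 2 with alignment-free counts, Slc38a1 and Slc36a2. With at least 50 counts it was 1, Slc38a1, and with no count minimum 10, 7 higher and 3 lower in replicate 2. The median retained-intron share, 46.3%, was 22.7% by expected counts, 43.8% by alignment-free TPM and 44.8% to 45.4% with 1 library left out. The numbers of detected genes of the 5 other lists moved by less than 1.5 times with the alignment-free program. The cause of these shifts was not tested. No paired analysis was possible because there is 1 group. Depth limits the low genes: ratios of Slc1a4, Slc7a3, Slc7a5, Slc7a6 and Slc7a15 rest on fewer than 100 counts in each library, and with n = 2 each SD is itself poorly known.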

Other observations

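Within Slc6a6 lie 3 short annotated entries of unknown coding potential, 2 of them wholly in its introns. Gm45828, on the same strand, had 1314 counts in replicate 1 and 1263 in replicate 2. The entries 4930517G19Rik (657 and 676 counts) and Gm44981 (1696 and 1727 counts) lie on the opposite strand, and Gm44981 overlaps an exon of Slc6a6. Their levels were 48.55 and 51.13 TPM for Gm45828, 27.01 and 30.41 TPM for 4930517G19Rik and 58.68 and 65.53 TPM for Gm44981. Reads assigned to these entries do not enter the Slc6a6 level.

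Carriers of the same family also lay close together at other places. Slc36a1 (11.5 TPM) lies 19.3 kb from Slc36a2, which had no count by alignment, and Slc36a2 lies 6.76 kb from Slc36a3 (0.125 TPM). Slc7a7 and Slc7a8, both detected, lie 304 kb apart on chromosome 14 with 16 protein-coding genes between them. The 19 detected genes and the 39 others had nearly the same median length on the genome, 33.6 kb and 33.7 kb, whereas over all protein-coding genes the medians were 24.6 kb for detected genes and 12.5 kb for the others.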
